A study of Mus musculus with 9 samples.

Results

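Adult neurogenesis in the hippocampus is read here from 9 genes, Sox2, Hes5, Eomes, Neurod1, Sox4, Sox11, Igfbpl1, Dcx and Calb2, which were taken by symbol from the 18275 genes of the deposited table. Every symbol matched 1 row. The first 3 mark stem and progenitor cells and the other 6 mark neuroblasts and immature neurons, and the 2 sides were set against each other between genotypes. RNA was sequenced from the hippocampus of adult male mice in 9 libraries, 1 per animal. Of these, 4 came from Nestin;BrafKE/+ mice, heterozygous for a Braf allele that encodes the constitutively active K499E kinase once Cre has recombined it, and 5 from Braf+/+ littermates. All animals are labelled as strain C57BL/6N, and none is labelled as treated with an agent. The study gives their age as a range of weeks, and age was not a term in any fit. Nestin-Cre acts in embryonic neural stem cells, so the stem cells, neurons, astrocytes and oligodendrocytes that descend from them all carry the recombined allele, and the samples hold the whole tissue. Whether the Braf+/+ mice carried the Cre transgene is not given in the sources used here.

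The subgranular zone of the dentate gyrus keeps neural stem cells that divide through life. They give rise to intermediate progenitors, then to neuroblasts that migrate a short way, and then to immature granule neurons that send axons to CA3 and join the circuit. Sox2 and Notch signalling, with Hes5 as one of its target genes, keep stem cells in place, while Eomes, Neurod1 and the SoxC factors Sox4 and Sox11 act as cells commit to the neuronal fate. These cells are a small share of the hippocampus, and most of the genes are also used by other cells. Sox2 and Hes5 are transcribed in astrocytes, and Calb2 in interneurons, mossy cells and Cajal-Retzius cells. In RNA from whole tissue, fewer cells of a type and less RNA per cell cannot be told apart.

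Promoter sequences from RefSeq (build GRCm38.p6), each from 250 bases before to 50 bases after a start site, were listed for 7 of the 9 genes, and all were found once in GRCm39 by exact match. Those of Hes5 and Sox11 are shown, as the Notch target on the stem cell side and as the gene whose groups were apart. The capitals mark TGGGAA, the core that the Notch effector RBPJ binds, in Hes5, and CANNTG, the E-box that proneural factors such as NEUROD1 bind, in Sox11, both searched on either strand.
Hes5 promoter, chr4:155045130-155045429 in GRCm39, plus strand: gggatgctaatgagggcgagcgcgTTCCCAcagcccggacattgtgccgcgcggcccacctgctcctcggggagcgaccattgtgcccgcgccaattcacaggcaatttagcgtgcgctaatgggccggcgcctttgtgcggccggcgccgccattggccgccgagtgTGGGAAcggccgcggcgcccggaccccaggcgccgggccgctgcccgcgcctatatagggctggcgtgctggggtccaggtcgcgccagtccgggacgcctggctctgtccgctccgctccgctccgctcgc
Sox11 promoter, chr12:27392668-27392967 in GRCm39, minus strand: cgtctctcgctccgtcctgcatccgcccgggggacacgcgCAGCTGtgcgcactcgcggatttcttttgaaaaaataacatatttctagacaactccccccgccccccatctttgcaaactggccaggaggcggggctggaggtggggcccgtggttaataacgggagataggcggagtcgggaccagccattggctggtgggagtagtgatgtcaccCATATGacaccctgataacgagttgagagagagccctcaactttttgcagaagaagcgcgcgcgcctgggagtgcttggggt
The Hes5 window held 2 RBPJ cores, starting at -226 and -82 from the start site, and 25.6% of the 32851 listed promoters held at least 1. The Sox11 window held 2 E-boxes, starting at -210 and -32, and 72.3% of listed promoters held at least 1. A match of letters is a description of the sequence and does not show that a factor binds there.

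The deposited values are normalised counts that the authors had adjusted for batches, so the number of reads behind each value is unknown. Library totals ran from 19551312 to 20091532. By their names the libraries form 3 series. Series A has 1 mutant and 3 control libraries, series B has 2 and 1, and series C has 1 of each, and the series was a term in every test unless stated. Nestin;BrafKE/+ replicate 1 is the only mutant library of series A, and Braf+/+ replicate 4 the only control of series B. Fits with the series term but without either of them hold no comparison of genotypes inside that series. The 7 hippocampal marker genes (Wfs1, Fibcd1, Prox1, Spink8, Grik4, Zbtb20 and Neurod6) were all measured. Their summed values were 18504 to 19665 in mutant and 15870 to 17286 in control libraries, which did not overlap. Of the 7 genes 2 had an adjusted p under 0.05 in limma, both higher in the mutant group (28.6%, against 2.88% of all genes tested). Choroid plexus markers, from a tissue that lies against the hippocampus, summed to between 1440.5 and 24539 in 7 of the libraries, and to 390988 in Braf+/+ replicate 2 and 113923 in Braf+/+ replicate 4. Of 16196 genes tested with limma, 466 (2.88%) had an adjusted p under 0.05, 246 of them higher in the mutant group (1.52%) and 220 lower (1.36%).

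Per kilobase of merged exons, the genes differed widely in level within the controls. Calb2 had 358 normalised counts per kilobase and Sox2 323, and the ranges of the 5 controls overlapped for this pair. Neurod1 followed at 136, and then Hes5 at 91.3 and Sox4 at 89.2, whose ranges overlapped each other. Sox11 was at 40.9, and Dcx at 26.0 and Igfbpl1 at 16.8, again an overlapping pair. Eomes, at 5.05, was the lowest. All other neighbours in this order were separated by their control ranges.

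None of the 9 genes passed the threshold between genotypes, and Sox11 came closest. In limma, 0 of 9 had an adjusted p under 0.05, against 2.88% of all genes tested, and 1, Sox11, had an unadjusted p under 0.05, against 18.5% of all genes. The log2 differences were above 0 for 7 genes and below 0 for Sox4 and Sox11, with a median of 0.11 for the 9 genes and 0.00 for all genes tested. The median absolute difference was 0.22, against 0.12 over all genes. The groups were fully separated for 1 gene of 9 (11.1%), where the share over all genes was 15.7%, and 8.13% with the mutant group lower. The difference had 1 sign in all 3 series for Sox4 and Sox11 (22.2%), against 36.6% of all genes.

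**Figure D1:**
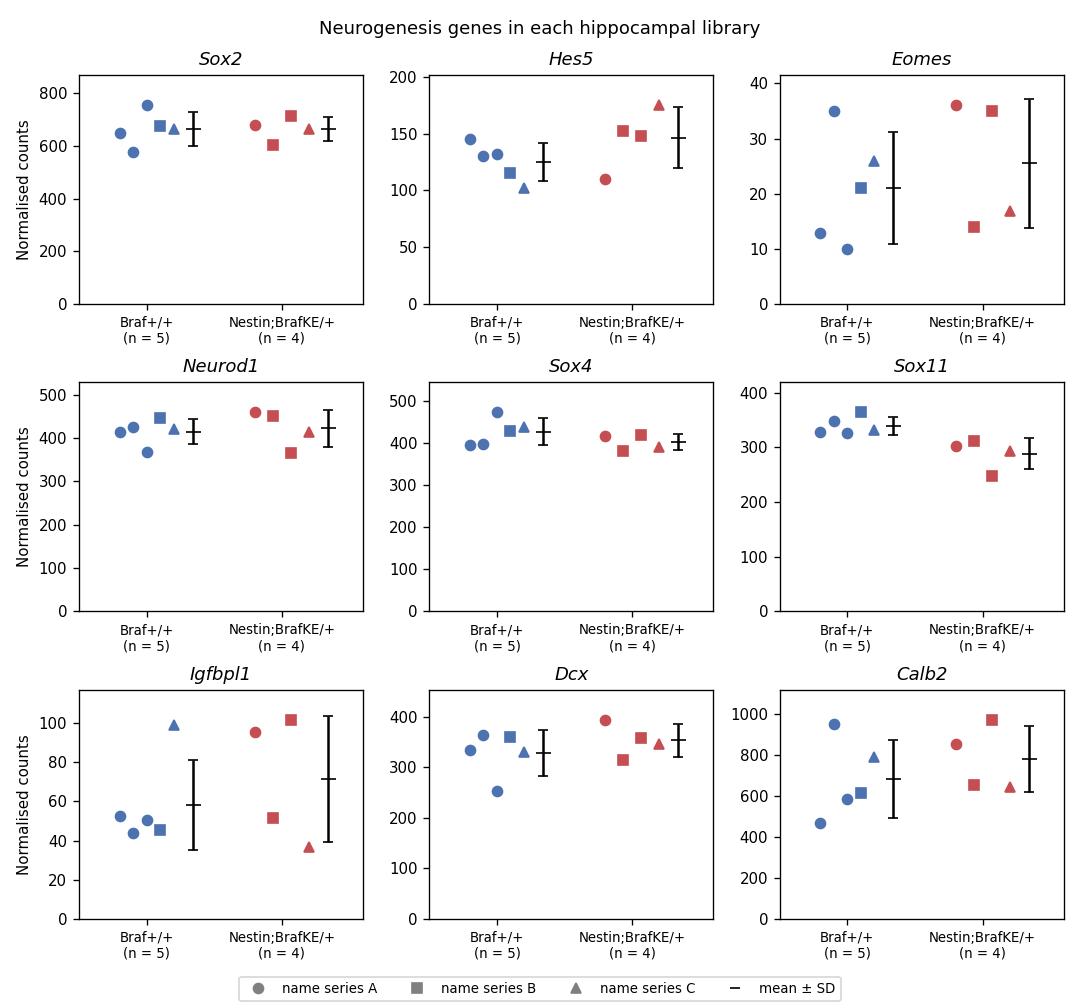
Normalised counts of the 9 genes (vertical axes from 0) in each library, by genotype, with the mean ± SD beside the points and a marker shape for each series of library names. Sox11 is the gene whose mutant values, 248 to 311, all lie below the control values, 326 to 365, while Eomes, Igfbpl1 and Calb2 spread widely in both groups.

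Sox11 (ENSMUSG00000063632, chromosome 12, 27384263 to 27392573 in GRCm39, minus strand), a SoxC transcription factor of committed neuronal precursors, was the one of the 9 with the largest difference relative to its error. It had 302, 311, 248 and 294 normalised counts in Nestin;BrafKE/+ replicates 1 to 4, and 329, 348, 326, 365 and 332 in Braf+/+ replicates 1 to 5. All 4 mutant libraries were therefore below all 5 controls. The means were 289 ± 28.3 (SD, n = 4) and 340 ± 16.3 (SD, n = 5), and the log2 difference was -0.24 (SE 0.10, 95% interval -0.46 to -0.02), with an unadjusted p of 0.0370 and an adjusted p of 0.236 in limma. A two-sided exact permutation test of Sox11, without the series, gave p = 0.00794, the smallest that its 126 arrangements allow. Fully separated groups give a p at or near this floor, so it restates the separation, which 15.7% of all genes tested also had. With the 24 arrangements inside series the permutation p was 0.0833, where the smallest possible is 0.0417. Sox11 was lower in each series, by log2 differences of -0.14 (A), -0.39 (B) and -0.18 (C). Over the 19 alternatives the adjusted p ran from 0.0563, without the series term, to 0.625, without Braf+/+ replicate 4. The mature granule cell list (Calb1, C1ql2, Dsp, Lct, Tdo2, Stxbp6, Glis3 and Prox1) also held genes that changed. Of these 8 genes, Stxbp6, Dsp and Lct fell past the threshold and Calb1 rose (50%, against 2.88% of all genes tested). None of these 4 calls held without Nestin;BrafKE/+ replicate 1 (adjusted p from 0.0662 to 0.118) or without Braf+/+ replicate 4 (0.0553 to 0.0982). The mean log2 level of the 8 genes, less its mean over the 9 libraries, was -0.19 to -0.02 in mutant and 0.01 to 0.11 in control libraries, so like Sox11 it was lower in every mutant library than in any control. The summed values, 9211 to 10182 in mutant and 9195 to 10085 in control libraries, overlapped. The part of the mature granule cells in the level of Sox11 was not tested.

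Sox4 (ENSMUSG00000076431, chromosome 13, 29132902 to 29137696), the SoxC partner of Sox11, had 382 to 420.3 normalised counts in mutant and 396 to 474 in control libraries, and the groups overlapped. Its log2 difference was -0.08 (SE 0.09, adjusted p = 0.652), and the interval from -0.28 to 0.11 bounds a change to between 0.825 and 1.08 times the control level. Sox12, the other SoxC gene, had 416 ± 8.74 (SD, n = 4) and 415 ± 17.6 (SD, n = 5) normalised counts. Among 13 further Sox genes, Sox12 included, 0 passed in limma, and 2 had an unadjusted p under 0.05, against 18.5% of all genes tested. The median log2 difference of the 13 was -0.03.

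Dcx (ENSMUSG00000031285, chromosome X, 142638838 to 142716307), which encodes the microtubule-binding protein doublecortin of migrating neuroblasts, had 395, 315, 357 and 347 normalised counts in the mutant libraries. In the controls it had 335, 364, 253, 359.5 and 331. The groups overlapped, with Braf+/+ replicate 3 lowest and Nestin;BrafKE/+ replicate 1 highest of all 9. The log2 difference was 0.11 (SE 0.13, adjusted p = 0.692), and its interval, -0.18 to 0.40, allows a fold between 0.886 and 1.32. Without Nestin;BrafKE/+ replicate 1 the difference was -0.03. Over the 9 libraries, genes whose log2 levels about their own mean lay among the closest to those of Dcx were Pcdhgb6 and Ift88, with root mean square differences of 0.0661 and 0.0665, where Dcx itself varied by 0.171 around its mean.

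Neurod1 (ENSMUSG00000034701, chromosome 2, 79282865 to 79287294), a proneural factor that granule neurons need to survive and mature, had 365 to 459.8 normalised counts in mutant and 367 to 446 in control libraries. These ranges nearly coincided. The log2 difference was 0.02 (SE 0.10, adjusted p = 0.928), with an interval of -0.20 to 0.25. Exons of Cerkl overlap it on the same strand, so some of its reads cannot be assigned with certainty.

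Igfbpl1 (ENSMUSG00000035551, chromosome 4, 45809254 to 45826923), an insulin-like growth factor binding protein relative found in neuroblasts, had 95.4, 51.7, 102 and 36.9 normalised counts in the mutant libraries. In the controls it had 52.7, 44.0, 50.8, 45.2 and 99.1. High values of about the same size occurred in both genotypes, in Nestin;BrafKE/+ replicates 1 and 3 and in Braf+/+ replicate 5, and the other 6 libraries lay between 36.9 and 52.7. The log2 difference was 0.24 (SE 0.37, adjusted p = 0.776), and the interval from -0.57 to 1.05 allows between 0.671 and 2.07 times the control level. Series A gave 0.95, B 0.67 and C -1.40. The sign turned without Nestin;BrafKE/+ replicate 1 (-0.22), and without either library of series C it was 0.82 (adjusted p = 0.148 without the mutant and 0.155 without the control).

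Calb2 (ENSMUSG00000003657, chromosome 8, 110864128 to 110894881), which encodes the calcium-binding protein calretinin of immature granule neurons, had 852, 654, 970.4 and 642 normalised counts in the mutant libraries. In the controls it had 466, 951, 581, 613 and 788. The control range held 3 of the 4 mutant values, and Nestin;BrafKE/+ replicate 3 was just above it. The log2 difference was 0.22 (SE 0.22, adjusted p = 0.633), with an interval of -0.26 to 0.69, and the series gave 0.42 (A), 0.38 (B) and -0.29 (C).

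On the stem cell side, Sox2 (ENSMUSG00000074637, chromosome 3, 34704554 to 34706610), the transcription factor that keeps neural stem cells undifferentiated, had 679, 602, 715 and 663 normalised counts in the mutant libraries. In the controls it had 648, 577, 757, 677 and 663. The mutant values all lay inside the control range. The means were 665 ± 47.0 (SD, n = 4) and 664 ± 64.3 (SD, n = 5), the log2 difference was 0.0033 (SE 0.09, adjusted p = 0.989), and its interval of -0.20 to 0.21 corresponds to between 0.868 and 1.16 times the control level. The genes closest to its pattern over the 9 libraries were Nr2c2ap, Gmppb and Dnajc30, with root mean square log2 differences of 0.0383, 0.0383 and 0.0430, where Sox2 varied by 0.111. Sox2 lies within an intron of the noncoding gene Sox2ot on the same strand.

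Hes5 (ENSMUSG00000048001, chromosome 4, 155045373 to 155046828), the transcriptional repressor that Notch switches on and whose promoter is printed above, had 110.4, 152, 148 and 175 normalised counts in the mutant libraries. In the controls it had 145, 130.0, 132, 115 and 102. In the mutant group 3 libraries were above every control, and Nestin;BrafKE/+ replicate 1 was below 4 of the 5. The log2 difference was 0.22 (SE 0.18, adjusted p = 0.552), with an interval of -0.17 to 0.60. The series gave -0.29 (A), 0.37 (B) and 0.78 (C), and without Nestin;BrafKE/+ replicate 1 it was 0.55 (adjusted p = 0.162), while without either library of series C it was 0.02.

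Astrocytes also transcribe Sox2 and Hes5, and their markers (Aqp4, Slc1a2, Slc1a3, Gja1, Gjb6, Aldoc, Aldh1l1, Gfap, S100b, Fgfr3, Acsbg1 and Slc4a4) moved with genotype. Of these 12 genes 4 rose past the threshold (Gfap, Aldoc, Acsbg1 and S100b), or 33.3% against 2.88% of all genes tested. Of the 12 genes 10 were above 0, and the median log2 difference was 0.28. Their summed values were 121329 to 135601 in mutant and 113041 to 126982 in control libraries, which overlapped. The mean log2 level of the 12 genes, less its mean over the 9 libraries, did not overlap, at 0.098 to 0.197 in mutant and -0.167 to -0.069 in control libraries. Without Nestin;BrafKE/+ replicate 1 the adjusted p of the 4 was 0.0742 to 0.134, and without Braf+/+ replicate 4 it was 0.0525 to 0.158. Their part in the levels of Sox2 and Hes5 was not tested.

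Eomes (ENSMUSG00000032446, chromosome 9, 118307280 to 118315200), the T-box factor of intermediate progenitors also known as Tbr2, had 36.1, 13.9, 34.9 and 16.9 normalised counts in the mutant libraries. In the controls it had 12.9, 35.01, 9.96, 21.1 and 26.0. Both groups spanned nearly the same range. Its log2 difference of 0.29 had an SE of 0.46 (adjusted p = 0.784), the least precise of the 9, and its interval from -0.73 to 1.31 allows between 0.603 and 2.48 times the control level. Series A gave 1.07, B 0.07 and C -0.59, and without Nestin;BrafKE/+ replicate 1 it was -0.21.

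**Figure D2:**
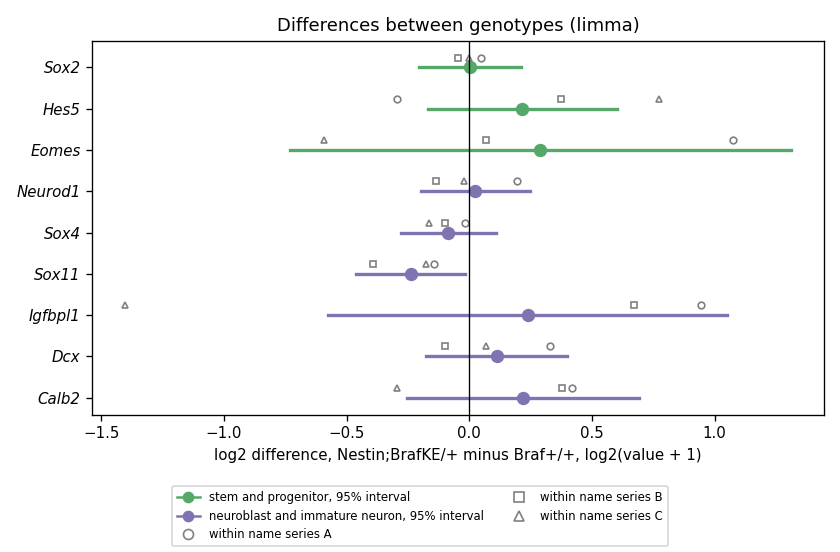
Log2 differences of the 9 genes (horizontal axis, mutant minus control on log2(value + 1)) from the limma fit, as points with 95% intervals, with the difference inside each series of library names as open grey symbols. The interval of Sox11, -0.46 to -0.02, is the one that leaves out 0 before adjustment for the number of genes tested, and Eomes and Igfbpl1 have the widest intervals.

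The 2 sides of the lineage were compared within each library, as the mean log2 level of Neurod1, Sox4, Sox11, Igfbpl1, Dcx and Calb2 less that of Sox2, Hes5 and Eomes. This difference was 1.32, 1.38, 1.09 and 1.09 in the mutant libraries and 1.34, 1.16, 1.41, 1.31 and 1.48 in the controls, and the groups overlapped. The mean was 1.22 ± 0.152 (SD, n = 4) in mutant and 1.34 ± 0.120 (SD, n = 5) in control libraries. With the series as a term, the stem and progenitor side was 0.17 higher in the mutant group and the neuroblast and immature neuron side 0.05 higher, which leaves the balance 0.12 lower on the log2 scale, less than the pooled SD of 0.135 within groups. The balance differed by 0.01 inside series A, by -0.08 inside B and by -0.39 inside C, a series with 1 library of each genotype. Without either library of series C it was -0.03, and without Nestin;BrafKE/+ replicate 1 it was -0.21. With Eomes left out the balance was -0.065, and with Calb2 left out it was -0.16. No p-value was computed for these means, because the genes were chosen with results of these libraries known.

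**Figure D3:**
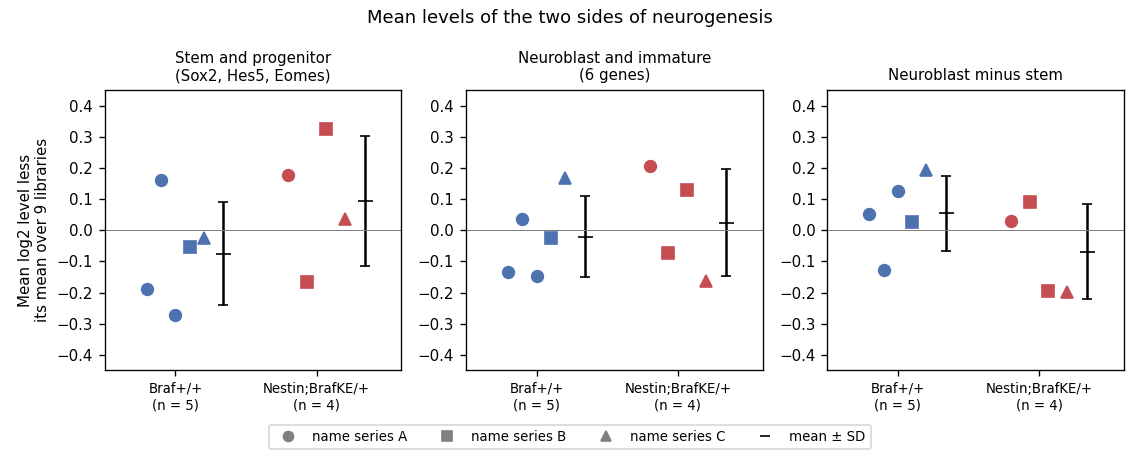
Mean log2 level of the stem and progenitor genes, of the neuroblast and immature neuron genes, and of the second less the first, each less its mean over the 9 libraries (vertical axis), by genotype with mean ± SD. The points of the genotypes overlap in all panels, and in the right panel the lowest values are those of Nestin;BrafKE/+ replicates 3 and 4.

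Apart from Sox11, the values of the 9 genes overlapped between genotypes, and some genes were high in the same libraries. The same 3 libraries had the highest Eomes and the highest Calb2, namely Braf+/+ replicate 2 with Nestin;BrafKE/+ replicates 1 and 3. Igfbpl1 was high in these 2 mutant libraries and in Braf+/+ replicate 5. Neurod1 and Sox4, by contrast, varied by no more than 1.26 times between the lowest and the highest library, against 3.63 times for Eomes, 2.76 for Igfbpl1 and 2.08 for Calb2. Markers of other cells and of neighbouring tissue varied in some of the same libraries. The thalamus list (Tcf7l2, Lhx9, Prkcd, Slc17a6 and Zic1, with Pou4f1 not in the table) summed to 2785 and 2717 in Nestin;BrafKE/+ replicates 1 and 3, and to between 1424 and 1872 in the other libraries. The Cajal-Retzius list (Trp73, Lhx1, Lhx5, Ndnf, Reln and Ebf3), whose cells use both Calb2 and Eomes, was highest in Nestin;BrafKE/+ replicate 1 at 2389 and lowest in Braf+/+ replicate 3 at 1500.3. By sum, Braf+/+ replicate 4, with 21.1 normalised counts of Eomes and 613 of Calb2, was second at 2015, above Nestin;BrafKE/+ replicate 3 at 1958. The mean log2 level of this list, less its mean over the 9 libraries, gave another order. It was 0.53, 0.29 and 0.20 in Nestin;BrafKE/+ replicates 1, 3 and 4. Braf+/+ replicate 4 followed at 0.08, and Braf+/+ replicate 3 was lowest at -0.77. Braf+/+ replicate 2, the third library with high Eomes and Calb2, was at 1947 in the Cajal-Retzius list and 1571 in the thalamus list, and it held the highest choroid plexus sum.

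In these lists no gene passed in limma. Over all genes tested, 18.5% had an unadjusted p under 0.05, the share to set beside the counts in this paragraph. Of the thalamus genes 0 of 5 had an unadjusted p under 0.05, and of the Cajal-Retzius genes tested 2 of 5. These 5 had 4 log2 differences above 0 and 1 below. Lhx5, with a mean under 10, was not tested. It was the lowest gene of the list, with a mean of 6.33. It had 6.98 to 13.1 normalised counts in mutant and 0.996 to 5.00 in control libraries, without overlap. Of all genes tested, 15.7% had no overlap. With the series as a term, the mean log2 level of the Cajal-Retzius list was 0.41 higher in the mutant group, and the groups overlapped. The subventricular neuroblast list (Dlx1, Dlx2, Dlx5, Dlx6os1, Sp8 and Sp9, some of which interneurons also use) summed to between 1141 and 1549 in mutant and 1221 and 1397 in control libraries, with 0 of 6 at an unadjusted p under 0.05. It was highest in the libraries with high Igfbpl1, Nestin;BrafKE/+ replicates 3 (1549) and 1 (1443) and Braf+/+ replicate 5 (1397). Braf+/+ replicate 4 followed at 1358. Interneuron markers, which include cells with calretinin, summed to 23536 to 24860 in mutant and 20505 to 22368 in control libraries, with 0 of 10 past the threshold and 3 at an unadjusted p under 0.05. Mossy cell markers summed to 508 to 693 and 506 to 639.7, with 0 of 5 at an unadjusted p under 0.05. Ependymal markers (0 of 6) and endothelial markers (1 of 6 at an unadjusted p under 0.05) gave no call either. Ependymal sums were highest in Nestin;BrafKE/+ replicates 1 (753) and 3 (742) and Braf+/+ replicate 5 (701), with Braf+/+ replicate 4 next (688). The part of the cells of all these lists in the levels of Calb2, Eomes and Igfbpl1 was not tested.

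**Figure D4:**
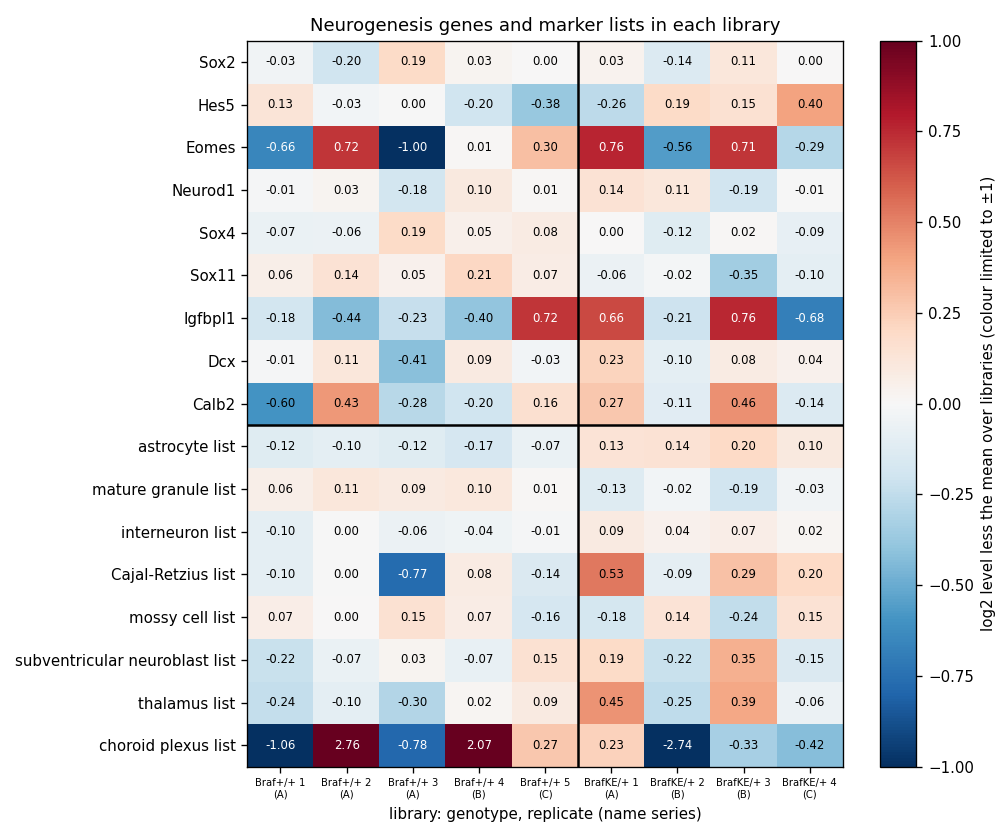
Log2 level of the 9 genes, and mean log2 level of 8 marker lists, each less its mean over the 9 libraries (colour and printed value), with the controls on the left of the black line and the mutant libraries on the right. Eomes reads 0.76, 0.71 and 0.72 and Calb2 0.27, 0.46 and 0.43 in mutant replicates 1 and 3 and control replicate 2, in that order, and choroid plexus markers are strongest in Braf+/+ replicates 2 and 4.

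Other genes of the same stages were taken from lists to place the 9 genes. Of 15 further stem cell genes 1 passed the threshold (6.7%, against 2.88% of all genes tested). Of the 15, 9 were above 0 and 6 below, and the median log2 difference was 0.11. The gene that passed was Hopx, a homeodomain protein of quiescent hippocampal stem cells that astrocytes also make. It had 2152, 1976, 2199 and 1854.5 normalised counts in the mutant libraries and 1347, 1317, 1421, 1329.7 and 1527 in the controls. These did not overlap, as for 15.7% of all genes tested. The log2 level of Hopx rose by 0.56 with an SE of 0.07 (adjusted p = 0.0048). Taken series by series the rise was 0.66 in A, 0.65 in B and 0.28 in the single pair of C. Without Nestin;BrafKE/+ replicate 1 the adjusted p of Hopx was 0.0674. Nes, the intermediate filament nestin of stem cells, whose promoter drives the Cre, had 192 ± 20.7 (SD, n = 4) against 239 ± 39.6 (SD, n = 5) normalised counts (log2 difference -0.31, adjusted p = 0.289).

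Of 15 listed genes of intermediate progenitors and dividing cells 14 were tested, and 0 passed in limma. An unadjusted p under 0.05 was found for 2 of the 14, against 18.5% of all genes tested. The log2 differences of the 14 were split, 7 above 0 and 7 below, with a median of 0.01. Mki67, the proliferation marker Ki67, had 38.2 ± 9.04 (SD, n = 4) and 38.0 ± 5.22 (SD, n = 5) normalised counts. The largest difference in this list relative to its error was that of Insm1, a zinc-finger factor of delaminating progenitors, at 140.5 ± 13.7 (SD, n = 4) against 97.1 ± 7.11 (SD, n = 5) normalised counts (log2 difference 0.53, adjusted p = 0.0712). Insm1, Mki67 and, above, Nes and Sox12 were named after their values were seen.

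Of 19 further genes of neuroblasts and immature neurons 5 passed (26.3%, against 2.88% of all genes), 2 higher and 3 lower. An unadjusted p under 0.05 was found for 10 of the 19, against 18.5% of all genes tested. Of the 19 log2 differences 6 were above 0 and 13 below, with a median of -0.11. The mean log2 level of the 19 genes, less its mean over the 9 libraries, was -0.078 to -0.045 in mutant and 0.0075 to 0.135 in control libraries, so that every mutant library was below every control, whereas the mean level of the 6 neuroblast and immature neuron genes above overlapped and differed by 0.05. These genes stay on in mature neurons to different degrees. Neurod2, a neuronal basic helix-loop-helix factor, fell from 3189.8 ± 249 (SD, n = 5) to 2205 ± 211 (SD, n = 4) normalised counts, a log2 difference of -0.53 (adjusted p = 0.0103). Marcksl1, an actin-linked protein of growing neurites, had 971, 976, 1082 and 1207 normalised counts in the mutant and 1331, 1525, 1533, 1498 and 1243 in the control libraries, and its log2 level fell by 0.43 (SE 0.10, adjusted p = 0.042). Nrep, a small protein of regenerating neurons, fell by 0.34 in log2 level (SE 0.08, adjusted p = 0.0457). Dpysl3, a collapsin response mediator of axon growth, rose by 0.27 in log2 level (SE 0.06, adjusted p = 0.0459), and Ncam1, the adhesion molecule that carries polysialic acid on immature neurons, rose by as much (0.27, SE 0.06, adjusted p = 0.0364) and was named after its value was seen. Each of the 5 had no overlap between groups (15.7% of all genes tested) and 1 sign in all 3 series (36.6%), with Marcksl1 at -0.04 in series C. The 5 were picked because they passed on these same values, so this adds no support. With 1 of the 9 libraries left out at a time, Dpysl3 failed in 9, Marcksl1 and Nrep in 7, Ncam1 in 6 and Neurod2 in 1, and without Nestin;BrafKE/+ replicate 1 none of them passed, the adjusted p running from 0.0753 for Neurod2 to 0.229 for Marcksl1. Without Braf+/+ replicate 4 the adjusted p was between 0.187 and 0.223 for all but Neurod2 (0.0294). Tubb3, an early neuronal tubulin, and Prox1, the granule cell fate factor, did not pass, with log2 differences of 0.05 and -0.05 (adjusted p = 0.732 and 0.692), and were also named after their values were seen.

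The Notch pathway, which acts through Hes5 in stem cells, was listed with 20 other genes, and 0 passed in limma. An unadjusted p under 0.05 was found for 5 of the 20, against 18.5% of all genes tested. The median log2 difference was -0.03, with 9 above 0 and 11 below. Hes1, the sister target of Hes5, had 158, 167, 158 and 137 normalised counts in the mutant and 219, 208, 194, 189 and 235 in the control libraries. The groups of Hes1 did not overlap, as for 15.7% of all genes tested. Its log2 difference of -0.43 (SE 0.12, adjusted p = 0.0905) was opposite in sign to the 0.22 of Hes5. Hey2, another Notch target, was at 81.6 ± 7.31 (SD, n = 4) against 119 ± 9.33 (SD, n = 5) normalised counts (log2 difference -0.54, adjusted p = 0.0746). Hes1 and Hey2 were named after their values were seen.

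Of 28 genes for signals of the dentate niche (BMP, WNT and Sonic hedgehog factors and growth factors) 1 passed (3.6%, against 2.88% of all genes tested). Of the 28, 13 were above 0 and 15 below, and the median log2 difference was -0.02. The gene that passed was Ntf3, the neurotrophin NT-3 that granule neurons make. It had 23.1, 33.8, 34.9 and 37.9 normalised counts in the mutant and 125, 141, 116, 100.4 and 97.1 in the control libraries. The groups were far apart. The log2 difference of Ntf3 was -1.82 with an SE of 0.21 (adjusted p = 0.00261). It was negative in every series (A -2.41, B -1.52, C -1.33), and its call held whichever of the 9 libraries was left out.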

How the data were processed

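Per the labels and the methods of the study, mRNA libraries were made with a stranded kit, trimmed with Trim Galore, aligned with STAR to GRCm39, quantified with Salmon and normalised with DESeq2 after a batch adjustment whose form is not given. The authors deposited 1 table of these normalised counts, a signal that is not a read count: values were whole multiples of 1 step per library, but mt-Co1 had the same whole number in all libraries. Depth is therefore unknown and no count model was used.

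Values were analysed as log2(value + 1) for genes with a mean of at least 10, with limma 3.58.1 in R 4.3.3 (genotype and series of library names as terms, trended variance), and p-values were adjusted by Benjamini-Hochberg over 16196 genes at a threshold of 0.05. A fold change on this scale understates the change of low genes. Single values were also tested by exact two-sided permutation of libraries. The 9 genes and all gene lists were chosen with earlier results of these data known. Besides the 9 genes, those past the threshold in the pathway lists were named, at most 4 per list by size of change, with exceptions stated. Likeness was the root mean square difference of centred log2 levels, among 11875 genes with a mean of at least 100. Some results that these rules would name are not reported here. Alternatives changed the pseudocount, filter, scaling, series term, replicate block, library weights and each library in turn. Whether counting used strand is not given in the sources used here, and antisense noncoding genes overlap exons of Sox2, Hes5, Eomes, Neurod1, Sox4 and Igfbpl1.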

Additional observations from a re-analysis of the deposited data

Results flagged for a closer look

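Igfbpl1 in Braf+/+ replicate 5, at 99.1 normalised counts, stood far above the other 4 controls, which lay between 44.0 and 52.7. The gap to the next control was 0.843 of the whole control range. This was 1 of 20 groups of libraries checked in this way, and chance flags about 1 in 20.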

How the results depend on the processing

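None of the 9 genes passed the threshold under any alternative, over 170 combinations of gene and alternative, and the lowest adjusted p was 0.0563, for Sox11 without the series term. Hes5, Sox4, Sox11 and Calb2 kept the sign of their difference in every alternative, and 11 of the 170 combinations turned the sign, all of them in Sox2, Eomes, Neurod1, Igfbpl1 or Dcx. Sox2 was at -0.065 with the 4 prefixes of the library names as the term. With 1 library left out at a time the log2 difference ran from -0.032 to 0.043 for Sox2, -0.21 to 0.60 for Eomes, -0.085 to 0.11 for Neurod1, -0.22 to 0.82 for Igfbpl1 and -0.028 to 0.22 for Dcx. The count of all genes past the threshold, 466, was 2260 without the series term, 165 with the 4 prefixes, 258 with library weights and 1402 with the replicate number as a block, and 42 to 371 with 1 library left out, at 42 without Nestin;BrafKE/+ replicate 1, 97 without Braf+/+ replicate 4, 169 without Nestin;BrafKE/+ replicate 3 and 278 without Braf+/+ replicate 1. Each fit that leaves out a library has fewer libraries. Without Nestin;BrafKE/+ replicate 1 series A holds no comparison of genotypes, and without Braf+/+ replicate 4 series B holds none. Series C holds none without either of its libraries. The part of this in these counts, and any other cause, was not tested. The replicate numbers gave correlations of -0.39, -0.08, 0.07 and 0.41 between libraries of the same number. Mixed in sign, these gave no reason to read the numbers as pairs, and only the libraries numbered 1 shared a series (A). Under the block the adjusted p of Sox11 in limma was 0.0888. Eomes was not tested with a mean of at least 50. Precision falls with level: the median SE over genes was 0.28 for means of 10 to 100 and 0.10 for means of 100 to 1000, which limits Eomes and Igfbpl1 most.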

Other observations

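Oligodendrocytes and their precursors also descend from Nestin-expressing cells, and some of their markers rose in the mutant libraries. Of 8 markers of oligodendrocyte precursors 7 were above 0, with a median log2 difference of 0.28, and 1 passed the threshold (2.88% of all genes passed). This was Cspg4, the proteoglycan NG2 of these cells and of pericytes, with 502, 474.9, 505 and 510.5 normalised counts in the mutant and 309, 327, 311, 327 and 309 in the control libraries. Its log2 level rose by 0.65 with an SE of 0.08 (adjusted p = 0.00261 in limma), and it passed in each fit that left out 1 library. Of 7 myelin genes 7 were above 0 and 4 passed (Mog, Mag, Mobp and Cldn11), with a median of 0.39, and none of the 4 passed without Nestin;BrafKE/+ replicate 1 (adjusted p from 0.138 to 0.183) or without Braf+/+ replicate 4 (0.0912 to 0.253). The 7 choroid plexus markers were all below 0, with a median of -1.44 and 0 past the threshold in limma. An unadjusted p under 0.05 was found for 2 of the 7, against 18.5% of all genes tested.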
